A study of Mus musculus with 19 samples.

Results

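The accessible chromatin around 8 genes of Wnt signalling was followed by ATAC-seq while mouse neural stem cells differentiated towards astrocytes. The genes were the ligands Wnt5a, Wnt7a and Wnt7b, the TCF/LEF transcription factors Lef1, Tcf7, Tcf7l1 and Tcf7l2, and the feedback gene Axin2. A peak belonged to a gene if its centre lay in the gene body or within 20 kb of either end, with gene coordinates from RefSeq on GRCm38.p6. This gave 111 peaks of the 90154 in the deposited table, and no peak belonged to more than 1 of the 8 genes. ATAC-seq reads mark where a transposase could reach the DNA, and their number over a peak is read as its accessibility.

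Wnt ligands are secreted lipid-modified proteins that bind Frizzled receptors and LRP co-receptors on neighbouring cells. In the canonical branch this frees beta-catenin from a destruction complex built on AXIN scaffolds, and beta-catenin then joins TCF/LEF factors on DNA and turns target genes on, while the same factors hold targets off without it. In the embryonic forebrain, canonical Wnt signalling is known for keeping progenitors dividing and for patterning, Wnt7a and Wnt7b made by neural cells are known for guiding brain vessels, and Wnt5a is best known for signalling without beta-catenin.

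All libraries came from C57BL/6J wild-type mouse neural stem cells of the ventricular zone at embryonic day 14, grown as floating neurospheres with EGF. Labels describe isolation from single brains but do not tie a library to a brain or culture, so p-values measure the spread between libraries, which may be technical. The 6 groups were undifferentiated neurospheres (NSPs, 3 libraries), cells moved for 24 h into medium with 10% serum on poly-L-ornithine (3), the same with 50 ng/ml of the cytokine tumor necrosis factor (TNF) (3), 72 h of differentiation (3), 72 h with TNF (3) and 1 week without TNF (4). No allele or transgene was involved.

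Values are the authors' normalised reads per peak, and reads in peaks ranged from 9640256 to 39349111 per library, highest in the NSP libraries (28636739 to 39349111). NSP replicate 1 stood apart from the other NSP libraries, with between-replicate Spearman correlations across peaks from 0.913 to 0.982 in NSPs against 0.940 to 0.978 in the other groups. The names of the 72 h and 1 week libraries carry the tag Luc and those of the NSP and 24 h libraries do not, so 72 h against 24 h and 1 week against NSPs cannot be told apart from whatever the tag marks. Across the table, 212 peaks held at most 3 reads in each of the 10 tagged libraries and at least 20 in each of the 9 untagged ones, and 0 of the 111 Wnt peaks did. The reverse held at 4 peaks of the table and 0 Wnt peaks. Such peaks are too rare among all peaks for these counts to bear on the tag at the Wnt peaks. Summed over the start peaks of 4 NSP markers of 5 listed, the signal was 4184 to 4746 in NSPs, 2013 to 2524 at 24 h and 2156 to 2373 at 1 week. Over 6 of 8 astrocyte markers it was 1531 to 1585 in NSPs, 1516 to 1755 at 24 h, 1764 to 1840 at 72 h and 1279 to 1429 at 1 week. With TNF the astrocyte sum was 1199 to 1406 at 24 h and 1179 to 1229 at 72 h, below the untreated libraries at both times. The sum over 4 of 7 oligodendrocyte markers was 2851 to 3402 in NSPs, 1537 to 1677 at 24 h and 1301 to 1474 at 1 week, and over 4 of 6 neuron markers 1747 to 2038, 1564 to 1646 and 1467 to 1837. The single start peak found for 5 fibroblast and mural cell markers held 179 to 229 in NSPs, 106 to 127 at 24 h and 187 to 206 at 1 week. Start peaks were found for 1 of 6 microglia markers (200.0 to 235 in NSPs and 174 to 221 at 24 h) and 0 of 4 endothelial markers, none of the latter having a peak within 1 kb of its start. The part of cell composition in any result below was not tested, and in these bulk samples fewer cells of a type and less accessibility per cell cannot be told apart.

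The 8 genes differed in how their peaks were spread. Tcf7l2, the longest at 192 kb, had 25 peaks, Tcf7l1 had 21, Wnt7b 17, Tcf7 and Axin2 11 each, Wnt7a 10, Wnt5a 9 and Lef1 7. Per kb of window, Wnt7b was the most densely covered (0.197 peaks per kb) and Lef1 the least (0.0454), although Lef1 spans 114 kb. Of the 111 peaks, 76 lay in a gene body and 35 in a flank, and 5 flank peaks lay inside another gene, namely Tcf7 peaks 2 to 4 inside Skp1, Lef1 peak 7 inside Hadh and Tcf7l1 peak 2 inside Tgoln1. A flank peak is assigned by distance and may serve another gene. Exons and introns were not assigned because the RefSeq table used held no transcripts. All 111 peaks were 500 bp long and passed the filter on low values, and peaks are numbered by coordinate within each gene.

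Each gene had a start peak, the peak nearest any of its RefSeq transcript starts and at most 1 kb from it. For Wnt5a and Wnt7b, whose strand the table did not give, this was the peak nearest either end. The 250 bases before the start are shown for 3 genes (Axin2, Lef1 and Tcf7l2), from RefSeq on GRCm38.p6, 5′ to 3′ on the plus strand. At 24 h the start peaks of Axin2 and Tcf7l2 fell alike, while that of Lef1 was not called. Capitals mark the bases inside the start peak, with an uncertainty of 1 base at the border because the deposited table does not say whether positions count from 0 or 1. The windows are chr11:108920099-108920348 for Axin2, chr3:131110047-131110296 for Lef1 and chr19:55741560-55741809 for Tcf7l2.
Axin2: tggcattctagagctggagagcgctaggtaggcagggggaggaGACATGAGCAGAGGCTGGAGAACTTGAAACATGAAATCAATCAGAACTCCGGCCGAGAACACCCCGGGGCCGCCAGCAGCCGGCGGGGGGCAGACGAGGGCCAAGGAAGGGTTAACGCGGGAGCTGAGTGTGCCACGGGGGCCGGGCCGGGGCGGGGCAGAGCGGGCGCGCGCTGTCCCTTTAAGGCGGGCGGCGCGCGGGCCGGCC
Lef1: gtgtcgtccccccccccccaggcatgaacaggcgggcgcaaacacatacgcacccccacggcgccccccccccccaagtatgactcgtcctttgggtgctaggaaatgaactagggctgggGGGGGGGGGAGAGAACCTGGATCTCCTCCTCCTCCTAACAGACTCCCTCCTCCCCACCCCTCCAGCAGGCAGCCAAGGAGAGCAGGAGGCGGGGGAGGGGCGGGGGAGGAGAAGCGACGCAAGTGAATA
Tcf7l2: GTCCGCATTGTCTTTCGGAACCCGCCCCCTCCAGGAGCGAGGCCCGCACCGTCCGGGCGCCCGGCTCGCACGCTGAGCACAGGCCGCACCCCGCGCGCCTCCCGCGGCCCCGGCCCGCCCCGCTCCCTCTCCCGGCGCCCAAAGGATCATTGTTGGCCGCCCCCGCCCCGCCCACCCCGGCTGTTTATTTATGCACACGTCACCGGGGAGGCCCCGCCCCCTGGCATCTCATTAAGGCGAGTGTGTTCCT
The start peak covered 207 of the 250 bases at Axin2, 129 at Lef1 and all 250 at Tcf7l2. GC content was 69.2%, 66.4% and 72.8% in that order, against a median of 52.4% (quartiles 45.2% and 61.2%) over the same 250 bases of 32851 RefSeq promoters. CpG dinucleotides numbered 24 at Axin2, 11 at Lef1 and 30 at Tcf7l2, against a median of 6. The letters CTTTGAT or CTTTGAA, bound by TCF/LEF factors, were searched on both strands from 250 bases before to 50 after the start, as were GGANTTTCC for NF-kB and TGANTCA for AP-1. None of the 11 promoter windows of 6 genes held any of them, beside 8.65%, 1.25% and 7.81% of all promoters. So few windows, some of which overlap, cannot show a difference from those shares. The promoter table matched these 6 genes and not Wnt5a and Wnt7b.

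Accessibility was tested with limma-trend on log2(value + 1) over all 19 libraries and 88919 peaks, and a call is an adjusted p (Benjamini-Hochberg) under 0.05. At 24 h against NSPs, 24 of the 111 peaks were called higher and 43 lower, where 24.2% of all peaks tested were called higher and 23.0% lower. The median log2 fold change was -0.29 over the Wnt peaks and -0.07 over all peaks. From 24 h to 72 h, 22 were called higher and 18 lower (all peaks 12.0% and 14.3%). From 72 h to 1 week, 17 were called higher and 18 lower (22.5% and 16.2%). From NSPs to 1 week, 33 were called higher and 48 lower (33.7% and 33.6%). The lower calls at 24 h and over the whole week thus made up a larger share of the Wnt peaks than of all peaks, as did the higher calls from 24 h to 72 h. The higher calls of the other comparisons were below the background. NSPs held the highest group mean at 57 of the 111 peaks (51.4%) and at 33.0% of all peaks tested, and 1 week at 23 (20.7% against 27.7%). The fold between the highest and the lowest group had a median of 2.31 over the Wnt peaks and 2.34 over all peaks.

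**Figure D1:**
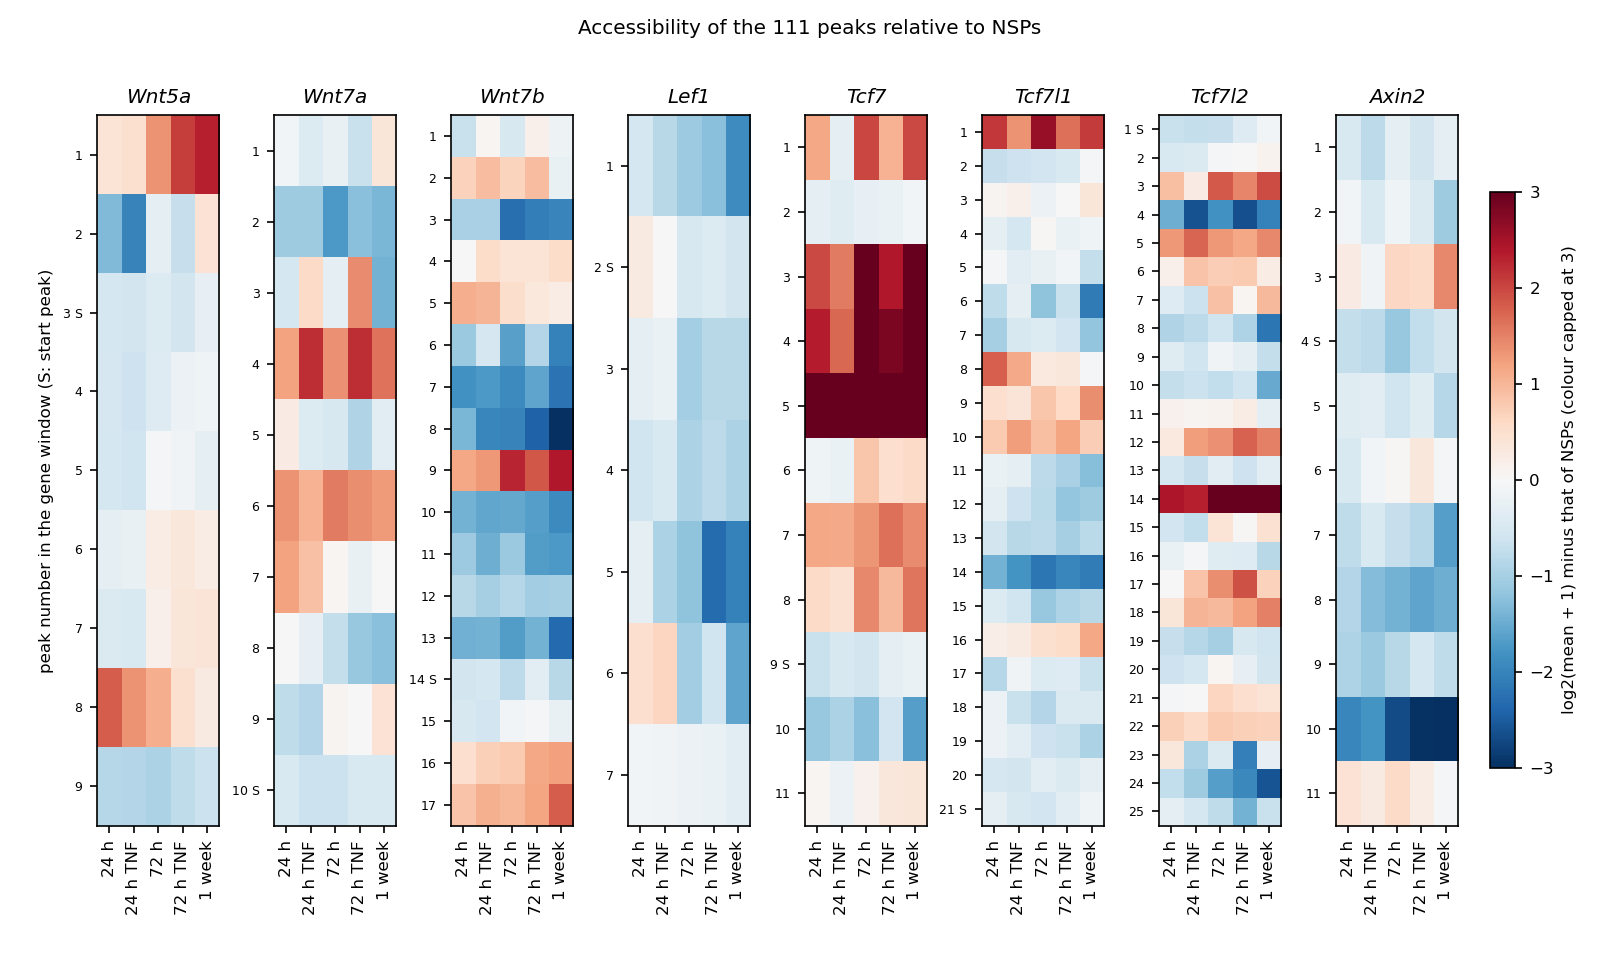
Mean accessibility of each of the 111 peaks in 5 groups minus that in NSPs, as log2(mean + 1), 1 panel per gene and 1 row per peak in order of coordinate (S marks the start peak, colours end at 3). Blue rows prevail in Wnt7b, Lef1, Tcf7l1 and Axin2 and red rows in Tcf7, and within most genes red and blue rows lie side by side.

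Total reads in peaks as the scale changed the balance of calls. Of all calls, 51.2% were higher at 24 h against NSPs under the authors' scaling and 67.9% under total reads, and the Wnt peaks then had 28 higher and 24 lower. Over all 88919 peaks, 26112 were then higher and 12367 lower. From 24 h to 72 h the higher share went from 45.6% to 56.9% of all calls, with 24 Wnt peaks higher and 14 lower (all peaks 13867 and 10504). For 1 week against 72 h it went from 58.2% to 21.0%, with 6 Wnt peaks higher and 43 lower (all peaks 7965 and 30033), as the median of all peaks moved from 0.02 to -0.31. Under TMM scaling it was 45.9% there, with 13 higher and 22 lower (all peaks 15781 and 18621). Single peaks named below from among the Wnt peaks kept their calls under total reads unless stated. Calls at the start peaks of other pathway genes, given further below, were not checked under total reads.

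Start peaks fell at 24 h in 6 of 8 genes and rose in none (limma-trend, 7 at an unadjusted p under 0.05, 6 lower and 0 higher by edgeR and by DESeq2, which called Wnt7b in place of Tcf7l1). Under total reads 2 were lower (Axin2 and Tcf7l2), when only the groups compared were fitted 3 (Tcf7, Tcf7l2 and Axin2), and without NSP replicate 1 also 3 (Wnt7a, Tcf7l2 and Axin2). Of all start peaks in the genome, 42.9% were called lower and 3.62% higher, so falls outnumbered rises among promoters at large too. The fall at Axin2 peak 4 was the largest, followed by Tcf7l2 peak 1 and Tcf7 peak 9, whereas Lef1 peak 2 was not called (log2 fold change 0.25, SE 0.25, adjusted p = 0.433), nor was Wnt7b peak 14 (log2 fold change -0.50, SE 0.22, adjusted p = 0.0657). From 24 h to 72 h, 3 start peaks fell (Lef1, Tcf7l1 and Axin2) and 0 rose (3 at an unadjusted p under 0.05, 2 lower by edgeR and by DESeq2, 1 under total reads, 1 without 24 h replicate 2 and 0 without 24 h replicate 1 or 72 h replicate 1), beside 24.9% lower and 6.4% higher over all start peaks. From 72 h to 1 week, 3 rose (Tcf7l1, Tcf7l2 and Axin2) and 0 fell (4 at an unadjusted p under 0.05, the same counts by edgeR and DESeq2, and 0 higher under total reads or loess offsets), beside 60.9% higher and 4.45% lower. Against NSPs, the 1 week libraries had 4 lower start peaks (Wnt7a, Wnt7b, Lef1 and Axin2) and 0 higher (4 at an unadjusted p under 0.05, 4 lower by both other tools), where all start peaks had 27.3% lower and 25.0% higher.

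Wnt5a, the ligand best known for beta-catenin independent signalling, dipped at 24 h and recovered. Its most changed site was peak 2 (chr14:28502620-28503120), 1.67 kb below the lower end of the gene, with 679, 816 and 835 normalised reads in the NSP libraries, 309.7, 359.9 and 262 at 24 h, 189, 208 and 186 at 24 h with TNF, 674, 612 and 641 at 72 h, 489, 482 and 459.7 at 72 h with TNF and 1032, 994, 1164 and 1017 at 1 week. The 24 h libraries lay below all NSP libraries, the 72 h libraries above all 24 h ones, and the 1 week libraries were the highest of all. Peak 2 fell at 24 h (log2 fold change -1.32, SE 0.12, adjusted p = 2.71e-10), rose by 72 h (log2 fold change 1.06, SE 0.12, adjusted p = 2.01e-07) and rose again by 1 week (log2 fold change 0.71, SE 0.11, adjusted p = 1.68e-05). Next to it, peak 1 (chr14:28501747-28502247) was higher later, going from 50.8, 19.8 and 17.3 in NSPs to 86.2, 78.9 and 63.7 at 72 h and 168, 139, 125 and 173 at 1 week (log2 fold change 2.48, SE 0.28, adjusted p = 7.81e-09 for 1 week against NSPs). The start peak, peak 3 (chr14:28504550-28505050), went from 287, 195 and 253 in NSPs to 165, 184 and 160.1 at 24 h without overlap. It fell by less than peak 2 (log2 fold change -0.51, SE 0.17, adjusted p = 0.0157), and the call was lost when any 1 of NSPs replicate 1 or 24 h replicate 3 was left out (log2 fold change -0.47 to -0.38, adjusted p = 0.0558 to 0.0626), or under total reads as the scale. At 24 h, 5 of the 9 Wnt5a peaks fell and 1 rose, namely peak 8 in the gene body, from 23.95, 19.8 and 18.6 to 62.6, 78.2 and 86.2 (log2 fold change 1.81, SE 0.33, adjusted p = 4.15e-05). By 72 h peak 8 held 56.6, 26.3 and 52.3 and by 1 week 29.98, 17.1, 33.01 and 20.4, so that the 1 week and NSP libraries overlapped (log2 fold change 0.22, SE 0.31, adjusted p = 0.532 for 1 week against NSPs).

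Wnt7a, a canonical ligand of the developing forebrain, had a peak that was high at 24 h. Peak 7 (chr6:91379144-91379644), 32 kb inside the gene from its start, held 104, 101 and 91.7 normalised reads in the NSP libraries, 195, 217 and 277 at 24 h, 164, 182 and 199 at 24 h with TNF, 84.9, 111.2 and 113 at 72 h, 88.5, 76.9 and 88.8 at 72 h with TNF and 97.9, 106, 99.03 and 91.1 at 1 week. Both 24 h groups lay above every library of the other groups. It rose at 24 h (log2 fold change 1.19, SE 0.17, adjusted p = 1.51e-06) and fell by 72 h (log2 fold change -1.14, SE 0.17, adjusted p = 1.75e-05), and 1 week against NSPs was not called (log2 fold change -0.00, SE 0.16, adjusted p = 0.981). The start peak, peak 10 (chr6:91411071-91411571), went from 262, 296 and 258 in NSPs to 164, 235 and 192 at 24 h (log2 fold change -0.48, SE 0.15, adjusted p = 0.00853), and the call was lost without 24 h replicate 1 (log2 fold change -0.35, adjusted p = 0.0727), or under total reads. At 1 week it held 220.4, 192, 191 and 183, still below all NSP libraries (log2 fold change -0.46, SE 0.14, adjusted p = 0.00384). Over the gene, 3 of 10 peaks rose and 3 fell at 24 h, and 1 rose and 4 fell from 24 h to 72 h.

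Wnt7b lost accessibility across most of its body. At 24 h, 9 of its 17 peaks fell and 5 rose, and at 1 week 9 were lower than in NSPs and 4 higher. The fall with the smallest p over the steps of differentiation was at peak 13 (chr15:85577757-85578257), 3.81 kb below the upper end of the gene. It held 219, 324.1 and 259 normalised reads in the NSP libraries, 106, 87.04 and 98.5 at 24 h, 103, 96.96 and 99.7 at 24 h with TNF, 88.8, 77.8 and 84.1 at 72 h, 98.3, 106 and 92.4 at 72 h with TNF and 48.5, 45.98, 55.01 and 61.1 at 1 week. No 24 h library reached an NSP library, and the 1 week libraries were lower again (log2 fold change -1.44, SE 0.18, adjusted p = 1.99e-07 at 24 h and log2 fold change -0.66, SE 0.17, adjusted p = 0.00312 for 1 week against 72 h). Peaks 7, 8 and 10 to 12, spread over the body, were also lower at 24 h and at 1 week than in NSPs, with log2 fold changes between -1.77 and -0.84 at 24 h, and between -2.93 and -0.99 at 1 week. Peak 9 (chr15:85566837-85567337), in the midst of them, went the other way, from 28.6, 26.4 and 17.3 in NSPs to 44.4, 51.6 and 68.97 at 24 h and 119, 143, 129.8 and 134 at 1 week (log2 fold change 2.43, SE 0.23, adjusted p = 1.75e-10). Peak 17 (chr15:85600276-85600776), 18.7 kb above the upper end, held 284, 313 and 232 at 72 h and 479, 444, 555 and 494 at 1 week, after 105, 148 and 163 in NSPs. It rose at 24 h (log2 fold change 0.87, SE 0.15, adjusted p = 2.45e-05) and from 72 h to 1 week (log2 fold change 0.84, SE 0.14, adjusted p = 4.21e-05). The start peak, peak 14 (chr15:85580794-85581294), ranged widely in NSPs at 210.3, 179 and 98.3, overlapped 99.1, 133 and 98.5 at 24 h, and was lower at 1 week with 91.7, 88.8, 72.6 and 112 (log2 fold change -0.77, SE 0.21, adjusted p = 0.00183), where NSP replicate 3 lay among the 1 week libraries.

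Lef1, the lymphoid enhancer factor that usually acts as an activator with beta-catenin, had weak peaks with lower values at 72 h and 1 week than at 24 h. At 24 h, 1 of its 7 peaks was called lower and 0 higher (limma-trend, and the lowest and highest log2 fold changes were -0.62 and 0.56). By 72 h 3 had fallen below 24 h, and at 1 week 6 of 7 were below NSPs and 0 above, the exception being peak 7 inside Hadh (log2 fold change -0.34, SE 0.20, adjusted p = 0.124). Both comparisons cross the tag Luc and cannot be told apart from it. From 72 h to 1 week, within the tagged libraries, 1 peak was lower (peak 1) and 0 higher. That call was lost when any 1 of the 72 h libraries, 1 week replicate 1 or 1 week replicate 3 was left out (limma-trend, adjusted p = 0.0536 to 0.21). Peak 6 (chr3:131139071-131139571), 29 kb inside the gene, held 42.1, 73.02 and 85.1 normalised reads in the NSP libraries, 84.3, 103 and 97.3 at 24 h, 99.04, 103 and 113 at 24 h with TNF, 37.3, 27.5 and 30.6 at 72 h, 36.7, 48.8 and 45.6 at 72 h with TNF and 27.3, 21.04, 6.60 and 31.1 at 1 week. All 72 h libraries lay below all 24 h libraries (log2 fold change -1.55, SE 0.36, adjusted p = 0.00201), and the lowest value, at 1 week replicate 3, stood for 3 reads. Upstream, peak 1 (chr3:131105835-131106335) went from 59.00, 64.5 and 68.4 in NSPs to 15.9, 18.7, 4.40 and 26.8 at 1 week without overlap (log2 fold change -2.12, SE 0.40, adjusted p = 2.75e-05). The start peak, peak 2 (chr3:131110168-131110668), held 55.5, 72.1 and 73.8 normalised reads in the NSP libraries, 109, 69.3 and 65.3 at 24 h, 68.1, 54.9 and 79.96 at 24 h with TNF, 45.04, 57.4 and 42.1 at 72 h, 49.2, 50.3 and 50.4 at 72 h with TNF and 41.4, 55.3, 46.2 and 38.6 at 1 week. The libraries at 72 h and 1 week lay below those at 24 h, and the highest 1 week library (55.3) just below the lowest NSP library (55.5). It was lower at 72 h than at 24 h (log2 fold change -0.72, SE 0.25, adjusted p = 0.0318), but the call was lost when any 1 of 24 h replicate 1, 72 h replicate 1 or 72 h replicate 3 was left out (log2 fold change -0.68 to -0.49, adjusted p = 0.089 to 0.203), or under total reads. For 1 week against NSPs (log2 fold change -0.56, SE 0.23, adjusted p = 0.0353), the call was lost when any 1 of NSPs replicate 2, NSPs replicate 3, 1 week replicate 1 or 1 week replicate 4 was left out (log2 fold change -0.52 to -0.48, adjusted p = 0.0723 to 0.12).

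Tcf7, which encodes the factor TCF-1, was the gene whose window opened, with 6 of 11 peaks higher and 2 lower at 24 h, 5 higher and 0 lower at 72 h against 24 h, and 8 higher and 1 lower at 1 week against NSPs. Peak 5 (chr11:52250966-52251466), 32.2 kb inside the gene from its start, held 28.04, 16.96 and 15.9 normalised reads in the NSP libraries, 209, 183 and 228 at 24 h, 169, 168 and 197 at 24 h with TNF, 436, 403 and 368 at 72 h, 439, 427 and 532 at 72 h with TNF and 864, 772, 948 and 891 at 1 week. Every step was without overlap, and the 1 week mean was 42.8 times the NSP mean. It rose at 24 h (log2 fold change 3.32, SE 0.16, adjusted p = 7.34e-16), again by 72 h (log2 fold change 0.96, SE 0.16, adjusted p = 8.44e-05) and again by 1 week (log2 fold change 1.11, SE 0.15, adjusted p = 3.36e-06). From NSPs to 1 week the mean of peak 5 went from 20.3 to 869 and that of the summed Tcf7 window from 1111 to 2276. Most of the rise of the summed window thus lay at peak 5. Peaks 3 and 4, 45.4 to 46.1 kb past the start in the 3′ flank and inside Skp1, a ubiquitin ligase subunit, also appeared. Peak 4 (chr11:52237735-52238235) went from 8.76, 2.36 and 4.65 in NSPs to 43.3, 22.1 and 28.3 at 24 h and 88.8, 112 and 98.1 at 72 h (log2 fold change 2.45, SE 0.37, adjusted p = 2.86e-06 at 24 h, log2 fold change 1.69, SE 0.37, adjusted p = 0.00111 at 72 h). Peak 3 held 9.35, 6.12 and 0.664 in NSPs and 67.9, 96.6, 83.6 and 86.9 at 1 week (log2 fold change 4.08, SE 0.41, adjusted p = 6.66e-10), the lowest NSP value being 1 read. Unlike these, the start peak, peak 9 (chr11:52283148-52283648), went from 262, 181 and 152 in NSPs to 119.5, 137 and 118 at 24 h (log2 fold change -0.63, SE 0.19, adjusted p = 0.00657), and the call was lost without NSPs replicate 1 (log2 fold change -0.41, adjusted p = 0.057), or under total reads. Peak 10 (chr11:52286304-52286804), 3.17 kb before the start, held 55.5, 149 and 148 in NSPs, where replicate 1 lay among the 61.5, 51.6 and 44.3 at 24 h. Its fall at 24 h (log2 fold change -1.03, SE 0.30, adjusted p = 0.00576) depended on the other NSP libraries, as the call was lost when any 1 of NSPs replicate 2 or NSPs replicate 3 was left out (log2 fold change -0.80 to -0.79, adjusted p = 0.0507 to 0.0543).

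Tcf7l1, which encodes TCF-3 and is known chiefly as a repressor of Wnt targets, mostly lost accessibility. At 24 h, 9 of its 21 peaks fell and 3 rose, and from 24 h to 72 h 6 fell and 0 rose. Of those 6, peaks 14, 15 and 21 had also fallen at 24 h, peaks 12 and 18 had not been called and peak 8 had risen. Peak 14 (chr6:72727721-72728221), 61.1 kb inside the gene, held 369.8, 319 and 323.6 normalised reads in the NSP libraries, 123, 131 and 126 at 24 h, 109.7, 91.6 and 90.3 at 24 h with TNF, 60.5, 114 and 49.7 at 72 h, 92.98, 78.3 and 88.8 at 72 h with TNF and 62.6, 67.02, 85.8 and 98.6 at 1 week. All NSP libraries lay above all others (log2 fold change -1.40, SE 0.22, adjusted p = 6.86e-06 at 24 h). Peak 13 (chr6:72711361-72711861), one of the strongest of the 111, moved less, from 1199.8, 1064 and 1095 in NSPs to 769, 864 and 658 at 24 h (log2 fold change -0.56, SE 0.12, adjusted p = 0.000292). Peak 8 (chr6:72667015-72667515) rose and fell, with 40.3, 18.4 and 9.30 in NSPs, 66.04, 88.5 and 88.7 at 24 h and 11.6, 44.3 and 28.04 at 72 h (log2 fold change 2.01, SE 0.44, adjusted p = 0.000441 at 24 h, log2 fold change -1.67, SE 0.44, adjusted p = 0.00581 at 72 h), though for 72 h the call was lost without 72 h replicate 1 (log2 fold change -1.17, adjusted p = 0.0699). Peak 16 (chr6:72740540-72741040) rose late, from 449, 484 and 414 at 72 h to 731, 715, 704 and 733 at 1 week (log2 fold change 0.68, SE 0.13, adjusted p = 0.000185), a rise not called under total reads or loess offsets. The clearest rise at 24 h was peak 1 (chr6:72607659-72608159), in the 3′ flank near the ends of Retsat and Tgoln1, from 7.59, 11.8 and 7.97 to 54.6, 36.9 and 36.95 (log2 fold change 2.11, SE 0.33, adjusted p = 4.98e-06). At the start peak, peak 21 (chr6:72789215-72789715), values went from 1072, 878 and 838 in NSPs to 751, 766 and 785 at 24 h and 574, 611 and 688 at 72 h, and came back to 856, 853, 790.0 and 893 at 1 week. The falls were small (log2 fold change -0.27, SE 0.11, adjusted p = 0.049 at 24 h and log2 fold change -0.30, SE 0.11, adjusted p = 0.0462 at 72 h), and both calls were lost under all 3 other scalings, by edgeR and by DESeq2. At 24 h the call was lost when any 1 of NSPs replicate 1, NSPs replicate 2, 24 h replicate 1, 24 h replicate 2 or 24 h replicate 3 was left out (log2 fold change -0.31 to -0.16, adjusted p = 0.0516 to 0.232), and at 72 h the call was lost when any 1 of 24 h replicate 1, 24 h replicate 2, 24 h replicate 3, 72 h replicate 1 or 72 h replicate 2 was left out (log2 fold change -0.32 to -0.24, adjusted p = 0.0809 to 0.178). The rise at 1 week (log2 fold change 0.44, SE 0.10, adjusted p = 0.0014) was lost under total reads and turned to -0.04 (adjusted p = 0.748, limma-trend) under loess offsets.

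Tcf7l2, which encodes TCF-4, the TCF factor prominent in glia, showed falling and rising peaks over its long body. At 24 h, 8 of its 25 peaks fell and 5 rose, and from 24 h to 72 h 9 rose and 1 fell. Peak 14 (chr19:55829493-55829993), 87.9 kb inside the gene, held 4.67, 12.7 and 5.98 normalised reads in the NSP libraries, 50.1, 57.5 and 30.8 at 24 h, 53.1, 48.5 and 29.1 at 24 h with TNF, 87.5, 99.3 and 125 at 72 h, 110.9, 151 and 134 at 72 h with TNF and 384, 408, 449 and 469 at 1 week. Its libraries rose without overlap at each untreated step, and the 1 week mean was 54.9 times the NSP mean, the largest such fold of the 111 peaks. The log2 fold change was 2.48 at 24 h (SE 0.28, adjusted p = 2.65e-08), 1.18 at 72 h (adjusted p = 0.00259) and 2.04 from 72 h to 1 week (adjusted p = 1.45e-06). In the other direction, peak 4 (chr19:55756719-55757219), 15.2 kb inside the gene, held 364, 211 and 297 normalised reads in the NSP libraries, 113, 128 and 72.7 at 24 h, 50.4, 54.9 and 34.3 at 24 h with TNF, 93.9, 65.8 and 85.4 at 72 h, 41.1, 42.9 and 54.01 at 72 h with TNF and 66.1, 69.4, 61.6 and 86.9 at 1 week. All NSP libraries lay above all others, and it fell at 24 h (log2 fold change -1.47, SE 0.24, adjusted p = 1.29e-05). The start peak, peak 1 (chr19:55741385-55741885), held 1118, 663 and 735 normalised reads in the NSP libraries, 584, 577 and 409 at 24 h, 567, 529 and 438 at 24 h with TNF, 493, 496 and 577 at 72 h, 650.0, 619 and 653 at 72 h with TNF and 756, 793, 801 and 825 at 1 week. NSP replicate 1 was the highest library, and the 1 week libraries lay within the NSP range. It fell at 24 h (log2 fold change -0.66, SE 0.15, adjusted p = 0.000636) and rose from 72 h to 1 week (log2 fold change 0.61, SE 0.14, adjusted p = 0.00121), the rise not being called under total reads or loess offsets.

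Axin2, a scaffold of the destruction complex and a textbook feedback target of beta-catenin with TCF/LEF factors, fell at 6 of 11 peaks and rose at 1 at 24 h, and was lower at 8 and higher at 1 at 1 week than in NSPs. Peak 10 (chr11:108958350-108958850), 7.82 kb past the 3′ end, held 314, 391 and 513 normalised reads in the NSP libraries, 100.2, 119 and 89.9 at 24 h, 117, 149 and 84.1 at 24 h with TNF, 56.6, 69.4 and 62.5 at 72 h, 48.3, 53.2 and 51.6 at 72 h with TNF and 43.2, 39.7, 44.01 and 54.7 at 1 week. The NSP libraries lay far above all others, and each later untreated group was lower than the one before without overlap. Peak 10 fell at 24 h (log2 fold change -1.95, SE 0.22, adjusted p = 1.77e-08), and 1 week against NSPs gave the largest fall of the 111 peaks (log2 fold change -3.11, SE 0.20, adjusted p = 5.32e-14). Its neighbour peak 11 (chr11:108958973-108959473), 8.44 kb past that end, held 102, 128 and 121 in NSPs and 161, 148 and 170.0 at 24 h (log2 fold change 0.45, SE 0.16, adjusted p = 0.0196), so the neighbours did not move together, although the call was lost when any 1 of NSPs replicate 1 or 24 h replicate 3 was left out (log2 fold change 0.35 to 0.40, adjusted p = 0.0694 to 0.082). The start peak, peak 4 (chr11:108920142-108920642), lies 2.56 kb inside the annotated gene, at a RefSeq transcript start within it. It held 1063, 717 and 696 normalised reads in the NSP libraries, 489.6, 559 and 456 at 24 h, 477, 469 and 481 at 24 h with TNF, 338, 397 and 389 at 72 h, 398, 549.8 and 529 at 72 h with TNF and 578, 535, 528 and 611 at 1 week. NSP replicate 1 was far above the others, 24 h libraries lay below all NSP libraries, and the 72 h libraries were the lowest. It fell at 24 h (log2 fold change -0.69, SE 0.14, adjusted p = 0.000181) and rose from 72 h to 1 week (log2 fold change 0.59, SE 0.13, adjusted p = 0.000916), the rise not being called under total reads or loess offsets. For 72 h against 24 h (log2 fold change -0.42, SE 0.14, adjusted p = 0.0287), the call was lost when any 1 of 24 h replicate 1, 24 h replicate 2 or 72 h replicate 1 was left out (log2 fold change -0.43 to -0.34, adjusted p = 0.0591 to 0.132). Peak 3 (chr11:108917378-108917878), at the annotated 5′ end of the gene (0.2 kb before it), held 272, 256 and 286 normalised reads in the NSP libraries, 288, 332 and 349 at 24 h, 260.0, 271 and 229.5 at 24 h with TNF, 383, 449 and 426 at 72 h, 418, 389 and 406 at 72 h with TNF and 684, 699, 847 and 726 at 1 week. It was highest at 1 week without overlap with any other group, opposite to the remaining Axin2 calls against NSPs (log2 fold change 0.81, SE 0.11, adjusted p = 3.2e-06 against 72 h and log2 fold change 1.44, SE 0.11, adjusted p = 3.01e-12 against NSPs).

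**Figure D2:**
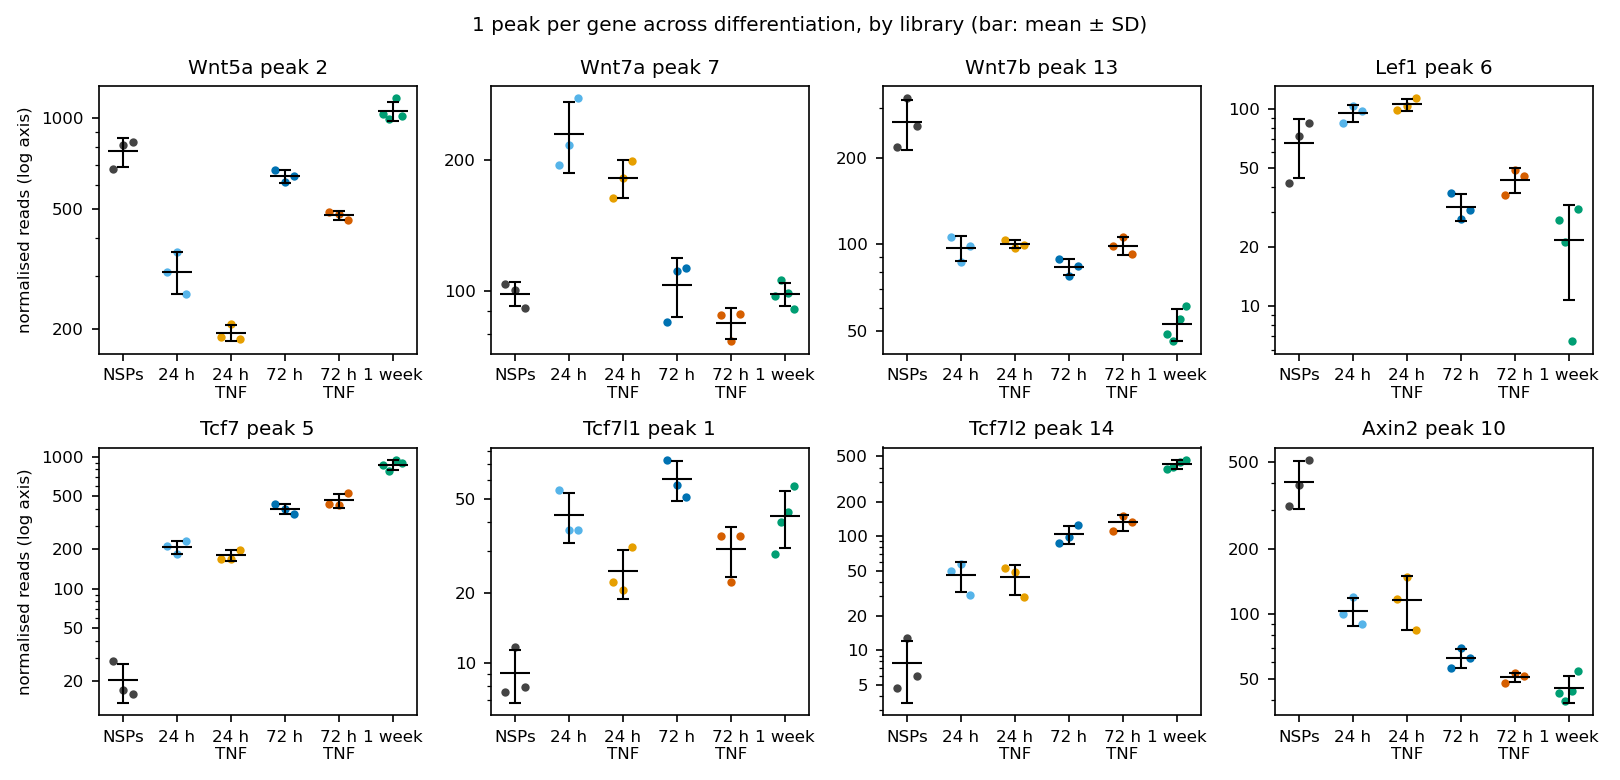
Normalised reads (log axis) of 1 peak per gene in each of the 19 libraries, with bars for mean and SD of each of the 6 groups. Tcf7 peak 5 and Tcf7l2 peak 14 climb from NSPs to 1 week, Wnt7b peak 13 and Axin2 peak 10 fall, Wnt5a peak 2 dips at 24 h and Wnt7a peak 7 is high at 24 h.

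Summed over its peaks, each gene's window was tested in the same way among 18123 windows of protein-coding genes. At 24 h, 5 of the 8 windows were called lower and 0 higher (6 at an unadjusted p under 0.05), where 46.4% of all windows were lower and 11.0% higher and their median log2 fold change was -0.20. These were Wnt5a (log2 fold change -0.73, SE 0.07, adjusted p = 8.01e-09), Wnt7b (log2 fold change -0.68, SE 0.09, adjusted p = 1.43e-06), Axin2 (log2 fold change -0.56, SE 0.08, adjusted p = 6.46e-06), Tcf7l2 (log2 fold change -0.37, SE 0.07, adjusted p = 0.000266) and Tcf7l1 (log2 fold change -0.36, SE 0.06, adjusted p = 2.39e-05). The Wnt5a window held 2383, 2196 and 2134 summed normalised reads in NSPs and 1281, 1447 and 1307 at 24 h, and that of Wnt7b held 3006, 4308 and 4053 and 2414, 2343 and 2259. Both were without overlap, with NSP replicate 1 the lowest of the NSP libraries at Wnt7b. When the peaks' log2 values were averaged in place of summing reads, which gives weak peaks the same weight as strong ones, Tcf7l1 (-0.0898, adjusted p = 0.284, limma-trend) and Tcf7l2 (-0.0639, adjusted p = 0.534) were no longer called and Tcf7 was higher (0.82, adjusted p = 1.83e-05). Summed, Tcf7 was not called (log2 fold change 0.13, SE 0.08, adjusted p = 0.141), but was higher without NSP replicate 1 (log2 fold change 0.21, adjusted p = 0.0198, limma-trend) and under the 3 other scalings, and Wnt7a was lower without that library (log2 fold change -0.16, adjusted p = 0.031).

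From 24 h to 72 h, Tcf7 (log2 fold change 0.49, SE 0.08, adjusted p = 3.57e-05), Wnt5a (log2 fold change 0.44, SE 0.07, adjusted p = 2.66e-05) and Tcf7l2 (log2 fold change 0.26, SE 0.07, adjusted p = 0.00724) rose, while Lef1 (log2 fold change -0.62, SE 0.10, adjusted p = 2.6e-05), Wnt7a (log2 fold change -0.32, SE 0.06, adjusted p = 0.000331) and Tcf7l1 (log2 fold change -0.23, SE 0.06, adjusted p = 0.00348) fell, beside 13.0% of all windows higher and 25.9% lower. The Lef1 window went from 482, 550.2 and 575 to 329, 367 and 343, and that of Tcf7 from 1241, 1295 and 1115 to 1641, 1782 and 1689. Neither pair overlapped. The Wnt7a fall was not called on averaged log2 values (-0.21, adjusted p = 0.0742, limma-trend). From 72 h to 1 week, 6 windows were higher and 0 lower (6 at an unadjusted p under 0.05), but so were 67.3% of all windows, with 5.46% lower and a median of 0.35. Tcf7 (0.42) and Wnt5a (0.39) were above that median, Wnt7a (0.35) just under it, Tcf7l1, Tcf7l2 and Axin2 (0.21 each) below it, and Wnt7b (0.06) and Lef1 (-0.16) were not called. Under total reads as the scale, 0 of the 8 were higher and 4 lower, and Wnt7b, Tcf7l1, Tcf7l2 and Axin2 turned negative (-0.28, -0.13, -0.13 and -0.13). Over the whole week against NSPs, 38.8% of all windows were higher and 26.0% lower. Of the 8, Tcf7 was higher (log2 fold change 1.04, SE 0.07, adjusted p = 8.47e-12), Lef1 (log2 fold change -0.93, SE 0.09, adjusted p = 2.89e-09), Wnt7b (log2 fold change -0.67, SE 0.08, adjusted p = 2.09e-07), Axin2 (log2 fold change -0.41, SE 0.08, adjusted p = 5.89e-05) and Tcf7l1 (log2 fold change -0.38, SE 0.05, adjusted p = 2.11e-06) were lower, and Wnt5a, Wnt7a and Tcf7l2 were not called, although without NSP replicate 1 Tcf7l2 was higher (0.23, adjusted p = 0.000744, limma-trend) and Wnt7a lower (-0.14, adjusted p = 0.0462), Wnt7a also under the 3 other scalings. On averaged log2 values the Wnt5a window was higher (0.28, adjusted p = 0.00983, limma-trend).

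**Figure D3:**
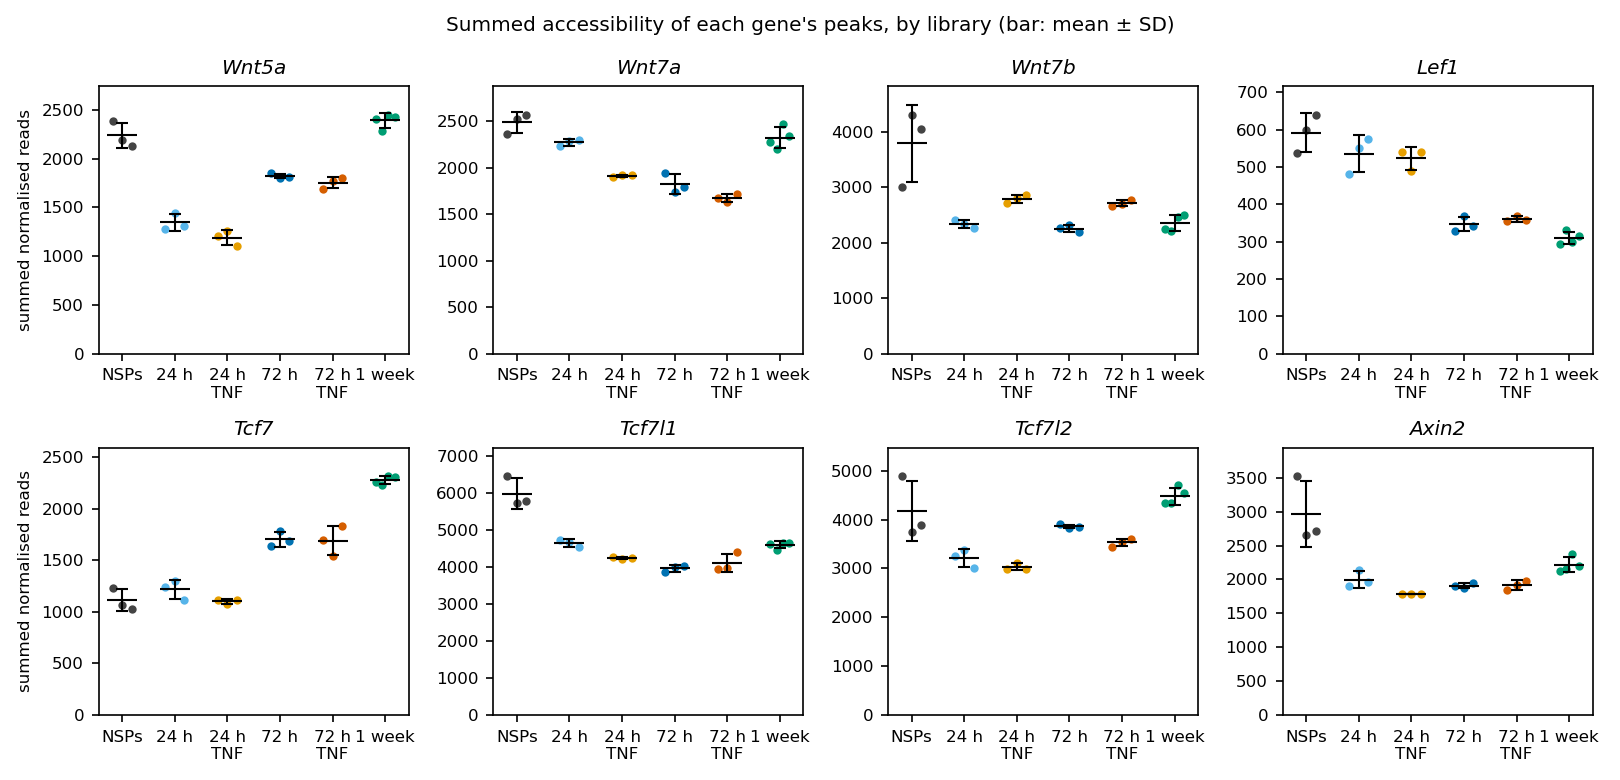
Summed normalised reads over all peaks of each gene in every library, with bars for mean and SD of the 6 groups and axes from 0. Tcf7 is highest at 1 week (2227 to 2315 against 1032 to 1231 in NSPs), Lef1 is lowest there, and Wnt5a dips at 24 h.

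TNF changed 14 of the 111 peaks at 1 time or both. At 24 h, 4 were higher and 4 lower with TNF, where 7.06% of all peaks were higher and 3.53% lower. At 72 h, 4 were higher and 7 lower (6.24% and 5.55% of all peaks). These shares are near or below the background. At an unadjusted p under 0.05 there were 21 of the 111 at 24 h and 29 at 72 h (19947 and 22022 of all 88919 peaks). By edgeR 4 were higher and 6 lower at 24 h (all peaks 6366 and 3597), and 3 and 9 at 72 h (5199 and 5419). By DESeq2 6 were higher and 6 lower at 24 h (6847 and 3962), and 4 and 9 at 72 h (6165 and 5427). Under total reads the higher share of all calls at 72 h went from 53.0% to 39.0%, with 3 Wnt peaks higher and 12 lower (4221 and 6601 of all 88919 peaks). Fitting only the groups compared gave, for 72 h, 10 higher and 13 lower, beside 8739 and 7686 of all 88919 peaks. The higher calls at 24 h numbered 2 without 24 h with TNF replicate 3, and at 72 h 2 were higher without 72 h with TNF replicate 3 and 3 lower without 72 h replicate 1. By limma-trend, Wnt5a, Wnt7a, Wnt7b, Tcf7 and Tcf7l2 held the called peaks, and Lef1, Tcf7l1 and Axin2 had 0 of 7, 0 of 21 and 0 of 11 at either time. The edgeR and DESeq2 counts are not split by gene here. TNF at 24 h and at 72 h share no library, and 80 of all 111 peaks had the same sign at both times. The same-sign share over all peaks was not computed, so this count is not read as particular to the Wnt peaks. Among the 14, which were selected by their calls, 13 did, the exception being Tcf7l2 peak 19. The difference of the 2 effects was called at 0 of the 111 peaks (8 at an unadjusted p under 0.05, lowest adjusted p = 0.485, and 0 by edgeR and by DESeq2), beside 0.00112% of all peaks. A TNF call at 1 time only is therefore not shown to be specific to that time.

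Wnt7b gained accessibility with TNF at both times at 2 sites. Peak 6 (chr15:85555824-85556324), in the body 25.7 kb below the upper end, is the strongest Wnt7b peak in NSPs and fell over differentiation, with 804, 1236 and 1266 normalised reads in the NSP libraries, 503, 519 and 509.9 at 24 h, 631, 822 and 879.6 at 24 h with TNF, 341, 364 and 356 at 72 h, 587, 581 and 617 at 72 h with TNF and 227, 247, 317 and 279.9 at 1 week. TNF libraries lay above their untreated counterparts at both times and below all NSP libraries at 72 h. The rise was 0.59 at 24 h (SE 0.15, adjusted p = 0.00768, limma-trend), where the call was lost without 24 h with TNF replicate 3 (log2 fold change 0.50, adjusted p = 0.0713), and 0.75 at 72 h (SE 0.15, adjusted p = 0.000831). Peak 1 (chr15:85523348-85523848), 11.8 kb below the lower end, held 237, 267 and 227 at 24 h and 459.8, 343 and 404 with TNF, then 252, 289 and 291 at 72 h and 444, 455 and 394 with TNF. Neither pair overlapped (log2 fold change 0.71, SE 0.14, adjusted p = 0.000882 at 24 h, log2 fold change 0.63, SE 0.14, adjusted p = 0.00279 at 72 h). With TNF its values were those of the NSP libraries (302, 445 and 410.0) within their range except 1 higher library at each time. The Wnt7b window as a whole was not called at 24 h (log2 fold change 0.25, SE 0.09, adjusted p = 0.0959) or at 72 h (log2 fold change 0.27, SE 0.09, adjusted p = 0.0515).

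Wnt5a peak 2, described above for its dip, was lower with TNF at both times. At 24 h it held 309.7, 359.9 and 262 without TNF and 189, 208 and 186 with it (log2 fold change -0.66, SE 0.12, adjusted p = 0.00033). At 72 h the values were 674, 612 and 641 without and 489, 482 and 459.7 with TNF (log2 fold change -0.43, SE 0.12, adjusted p = 0.0162). At neither time did the libraries overlap, although at 72 h the call was lost when any 1 of 72 h replicate 1 or 72 h with TNF replicate 3 was left out (log2 fold change -0.40 to -0.39, adjusted p = 0.0675 to 0.0757). No other Wnt5a peak was called.

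Wnt7a had 2 peaks higher and 2 lower with TNF, all 4 in its 3′ flank. Peak 3 (chr6:91351659-91352159) went from 14.2, 34.7 and 22.9 to 70.6, 76.9 and 90.01 at 72 h (log2 fold change 1.76, SE 0.46, adjusted p = 0.011), and the call was lost when any 1 of 72 h replicate 1 or 72 h with TNF replicate 3 was left out (log2 fold change 1.45 to 1.67, adjusted p = 0.0536 to 0.0841). At 24 h it went from 18.2, 22.1 and 19.7 to 65.4, 32.3 and 34.3, also without overlap but not called (log2 fold change 1.03, SE 0.46, adjusted p = 0.176). Peak 4 (chr6:91358350-91358850) went from 17.1, 48.7 and 59.1 to 68.98, 65.7 and 119 at 24 h (log2 fold change 1.13, SE 0.35, adjusted p = 0.0322), but the call was lost when any 1 of 24 h replicate 1, 24 h with TNF replicate 1 or 24 h with TNF replicate 3 was left out (log2 fold change 0.59 to 1.25, adjusted p = 0.0504 to 0.32). Peak 5 (chr6:91360948-91361448) went from 387, 425 and 356 to 268, 263 and 209 at 24 h (log2 fold change -0.66, SE 0.15, adjusted p = 0.00277). At 72 h it held 235, 249 and 221 without and 161, 168 and 203 with TNF, also apart but not called (log2 fold change -0.41, SE 0.15, adjusted p = 0.0672). Peak 1 (chr6:91345928-91346428) went from 879, 718 and 781 to 571, 581 and 608 at 72 h (log2 fold change -0.43, SE 0.11, adjusted p = 0.00819), and the call was lost without 72 h replicate 1 (log2 fold change -0.35, adjusted p = 0.0705). At each of these calls the TNF libraries lay apart from the untreated ones. The Wnt7a window held 2227, 2288 and 2301 at 24 h and 1895, 1918 and 1917 with TNF, and was the only one of the 8 windows called for TNF at 24 h (log2 fold change -0.25, SE 0.06, adjusted p = 0.0134), beside 2.05% of all windows lower and 4.34% higher. There the call was lost without 24 h with TNF replicate 1 (log2 fold change -0.24, adjusted p = 0.0554), and when the peaks' log2 values were averaged in place of summing reads (log2 fold change -0.00414, adjusted p = 0.987, limma-trend).

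Among the TCF/LEF genes, Tcf7l2 had 6 peaks changed by TNF. Peak 4, the one that fell with differentiation, was lower again with TNF, from 113, 128 and 72.7 to 50.4, 54.9 and 34.3 at 24 h (log2 fold change -1.14, SE 0.24, adjusted p = 0.00209). At 72 h it held 93.9, 65.8 and 85.4 without and 41.1, 42.9 and 54.01 with TNF (log2 fold change -0.81, SE 0.24, adjusted p = 0.0274). For 72 h the call was lost when any 1 of 72 h replicate 1, 72 h replicate 3, 72 h with TNF replicate 1 or 72 h with TNF replicate 2 was left out (log2 fold change -0.77 to -0.70, adjusted p = 0.0866 to 0.127). The largest fall with TNF of the 111 peaks was at peak 23 (chr19:55940819-55941319) in the 3′ flank, from 169.6, 198 and 154 to 62.8, 70.03 and 79.96 at 24 h (log2 fold change -1.28, SE 0.33, adjusted p = 0.0091). At 72 h it held 88.8, 105 and 108 without and 37.6, 32.5 and 27.6 with TNF (log2 fold change -1.61, SE 0.33, adjusted p = 0.00117). Its NSP values were 283, 72.1 and 57.1, replicate 1 standing apart, and at 24 h the call was lost without 24 h replicate 2 (log2 fold change -1.18, adjusted p = 0.0518). Peak 7 (chr19:55779802-55780302), higher at 72 h than at 24 h without TNF, was lower with TNF at 72 h. It held 530.2, 449.8 and 516 without and 289.7, 272 and 286 with TNF (log2 fold change -0.81, SE 0.14, adjusted p = 0.000281). Peak 25 (chr19:55953206-55953706) went from 377, 341 and 308 to 223.5, 217 and 209 at 72 h (log2 fold change -0.65, SE 0.13, adjusted p = 0.000784). Higher with TNF were peak 18 (chr19:55876476-55876976) at 24 h, from 179, 189 and 150.3 to 218, 276 and 325 (log2 fold change 0.64, SE 0.15, adjusted p = 0.00357), and peak 19 (chr19:55895329-55895829) at 72 h, from 169.9, 104 and 147 to 174, 226 and 202 (log2 fold change 0.54, SE 0.16, adjusted p = 0.0259), not called under total reads or by edgeR, and the call was lost when any 1 of 72 h replicate 2, 72 h with TNF replicate 2 or 72 h with TNF replicate 3 was left out (log2 fold change 0.34 to 0.53, adjusted p = 0.0772 to 0.21). In none of these calls did treated and untreated libraries overlap. Tcf7 had 1 call, peak 4 in Skp1, which was lower with TNF at 72 h, with 58.1, 25.1 and 46.8 against 88.8, 112 and 98.1 (log2 fold change -1.26, SE 0.37, adjusted p = 0.0226), but the call was lost when any 1 of 72 h replicate 1, 72 h replicate 2, 72 h replicate 3 or 72 h with TNF replicate 2 was left out (log2 fold change -1.34 to -0.92, adjusted p = 0.0511 to 0.16).

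**Figure D4:**
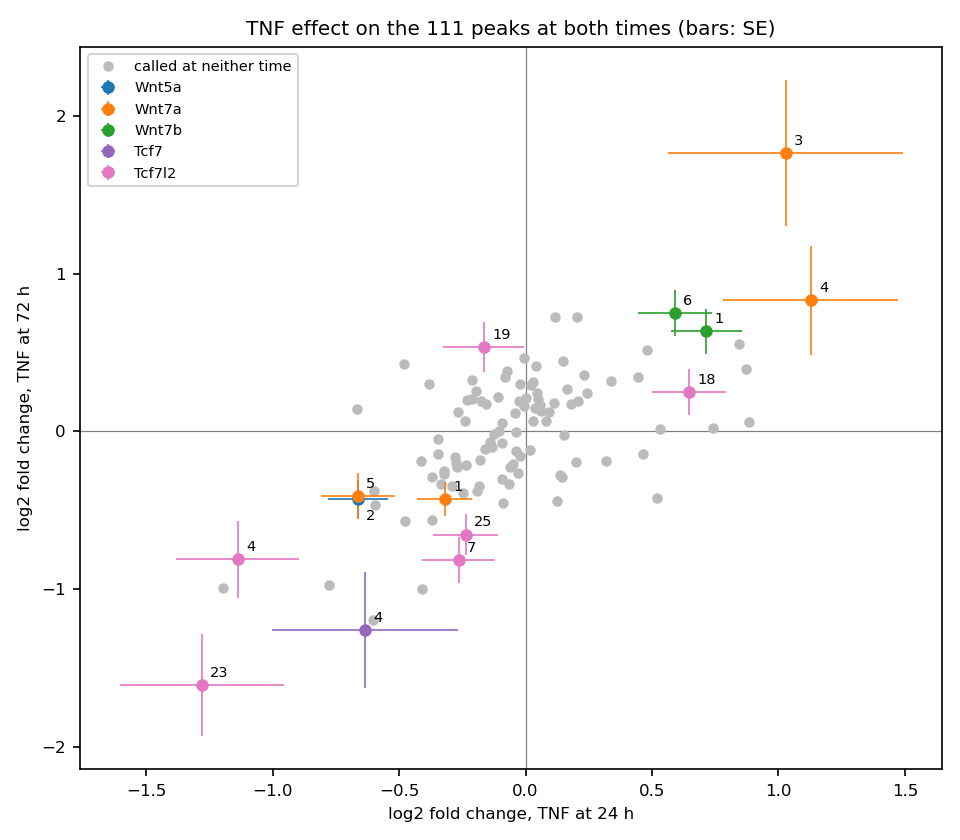
Log2 fold change with TNF at 24 h (x axis) and at 72 h (y axis) of the 111 peaks, where coloured points with SE bars are the 14 called at either time, labelled by peak number within the gene. The same sign on both axes is held by 80 of all 111 peaks and by 13 of the 14, all but Tcf7l2 peak 19. The 14 were selected by their calls, and the share over all peaks was not computed.

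No start peak of the 8 genes was called with TNF at 24 h (0 at an unadjusted p under 0.05, and 0 calls by limma-trend, edgeR and DESeq2) or at 72 h (2 at an unadjusted p under 0.05, 0 calls by all 3 tools). Over all start peaks, 1.15% were higher and 0.477% lower at 24 h, and 2.89% and 0.715% at 72 h. By windows, 0 of 8 were called at 72 h (limma-trend, 1 at an unadjusted p under 0.05), beside 9.19% of all windows higher and 3.15% lower. The difference of the TNF effects between times was called at 0 of the 8 windows (1 at an unadjusted p under 0.05), beside 0.011% of all windows.

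Other genes of the pathway were read at their start peaks. Of 89 listed genes, 71 had one, and at 24 h 38 fell and 1 rose, with a median log2 fold change of -0.38 beside -0.30 over all start peaks. The fallers included 10 of 16 receptors and co-receptors, 9 of 12 genes of the intracellular relay from Dvl to beta-catenin, 5 of 10 nuclear cofactors and all 5 further target genes with a start peak. Among the secreted inhibitors 3 of 8 fell, in the R-spondin axis 3 of 9 and among the other Wnt ligands 2 of 9, beside 42.9% of all start peaks. The lists are small, and the shares of the secreted inhibitors, the R-spondin axis and the nuclear cofactors are near that background. Ccnd1, the cyclin that drives entry into S phase and a known Wnt target, went from a mean of 440.3 ± 66.2 to 154 ± 13.1 normalised reads (SD, n = 3 each, log2 fold change -1.50, SE 0.17, adjusted p = 2.68e-08, limma-trend). Fzd9, a Frizzled receptor, went from 484 ± 47.9 to 246 ± 62.2 (log2 fold change -0.999, SE 0.15, adjusted p = 3.81e-06, limma-trend). The riser was Wnt5b, a ligand close to Wnt5a, from 127 ± 21.3 to 191 ± 42.3 (log2 fold change 0.57, SE 0.17, adjusted p = 0.0067, limma-trend). At 1 week against NSPs, 38 of the 71 were lower and 7 higher, beside 27.3% lower and 25.0% higher over all start peaks. The median was -0.37 beside 0.00 over all start peaks. From 24 h to 72 h 29 fell and 3 rose, and from 72 h to 1 week 37 rose and 4 fell, beside the shares of all start peaks given above. With TNF, 0 of the 71 were called at 24 h (limma-trend, 0 at an unadjusted p under 0.05, 0 by edgeR and by DESeq2), beside 1.15% higher and 0.477% lower over all start peaks. At 72 h 3 were higher and 0 lower (10 at an unadjusted p under 0.05, 1 higher by edgeR and by DESeq2), near the 2.89% higher and 0.715% lower of all start peaks. These were the secreted inhibitor Sfrp1, from 197 ± 17.6 to 271 ± 8.24 (log2 fold change 0.47, SE 0.13, adjusted p = 0.0136, limma-trend), the kinase gene Csnk1e, from 203 ± 9.32 to 288 ± 27.7 (log2 fold change 0.50, SE 0.16, adjusted p = 0.0401, limma-trend), and the ligand Wnt9a, from 222 ± 18.6 to 300.4 ± 12.7 (log2 fold change 0.44, SE 0.15, adjusted p = 0.0481, limma-trend).

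The gene most like each member in its 6 group means of log2 summed accessibility was found among 13744 to 13747 genes with at least 3 peaks. It was Tmem270 for Wnt5a (Pearson r 0.996), Mgll for Wnt7a (0.999), Bdkrb2 for Wnt7b (0.998), Trim36 for Lef1 (0.998), Slc25a17 for Tcf7 (0.999), Mxd3 for Tcf7l1 (0.997), Borcs6 for Tcf7l2 (0.992) and Nipsnap2 for Axin2 (0.999). These values describe 6 points that share libraries and scaling, and 3 to 21 genes passed 0.99 for each member. None of the 8 closest genes was another member, which among so many genes does not bear on whether the members move together.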

How the data were processed

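ATAC-seq was performed on 19 libraries, each from 50000 transposed cells. By the study's methods, quality was checked with FastQC, bad reads were removed with Trim Galore, Bowtie2 was the aligner, SAMtools dropped mitochondrial reads, MACS2 called the peaks, blacklisted regions were removed and DiffBind compared groups. The build is mm10 in the submitters' processing notes, the same assembly as GRCm38. Tool versions, any transposase offset of the reads and the scaling are not given in the sources used here. The deposited table holds 1 signal value per peak and library, scaled by the authors. All values (100%) were a whole number of reads, within 0.1 of a read, times a factor per library. A single read was worth 0.471 to 2.20. Recovered reads per library (9640256 to 39349111) describe the table and may not be independent fragments.

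Values were transformed as log2(value + 1) and fitted with limma-trend (limma 3.58.1, R 4.3.3) with a mean per group over all 19 libraries, two-sided, with Benjamini-Hochberg adjustment over 88919 peaks kept by filterByExpr of edgeR 4.0.16 (minimum count 10), which left out 1235. Fold changes on this scale understate changes of low peaks. Windows were summed before the log and tested over 18123 protein-coding genes. Counts were the planned unit, and limma-trend was the planned test for normalised values. Alternatives were total reads, loess offsets, TMM, edgeR quasi-likelihood and DESeq2 1.42.0 on recovered reads, no filter, a pseudocount of 8, only the groups compared, replicate blocks, a 5 kb window, and each library left out. The fit was tested on simulated data. Named peaks were each gene's start peak and, in each direction, the call with the smallest p over the differentiation and over the TNF comparisons. All other peaks called with TNF, and Wnt5a peaks 1 and 8, Wnt7b peaks 7 to 12, Lef1 peaks 1 and 7, Tcf7 peak 3, Tcf7l1 peaks 8, 13 and 16 and Axin2 peak 11, were added after their values had been seen. The genes, lists and tests were chosen with earlier results of these data known.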

Additional observations from a re-analysis of the deposited data

Results flagged for a closer look

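At 1 week, replicate 2 held 13.2 normalised reads at Tcf7l1 peak 8, below the 23.6 to 25.6 of the other 3 libraries, a gap of 0.839 of the range of the group, above Dixon's 95% critical value for 4 samples. This was 1 of 51 sets of 1 week values examined, and chance gives about 1 in 20. The difference of the TNF effects between 72 h and 24 h was called at 0 of the 111 peaks and 0 of the 8 windows by limma-trend (8 and 1 at an unadjusted p under 0.05, 0 peaks by edgeR and by DESeq2).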

How the results depend on the processing

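The share of peaks called moved most with the scale. Under total reads in peaks, peaks lower at 24 h against NSPs went from 43 to 24, and for 1 week against 72 h those higher went from 17 to 6 (8 under loess offsets) and those lower from 18 to 43, and with TNF at 72 h 12 were lower in place of 7. Fitting only the groups compared gave 14 higher at 24 h against NSPs in place of 24, and with TNF at 72 h 10 higher and 13 lower in place of 4 and 7. Over all 88919 peaks, that fit called 17394 higher at 24 h in place of 21492. With TNF at 72 h it called 8739 higher and 7686 lower in place of 5551 and 4932. A window of 5 kb, which holds 88 of the 111 peaks, gave 2 higher with TNF at each time and 3 lower at 72 h. Leaving out 1 library gave 2 to 5 higher with TNF at 24 h (2 without 24 h with TNF replicate 3), and at 72 h 2 to 5 higher (2 without 72 h with TNF replicate 3) and 3 to 7 lower (3 without 72 h replicate 1).

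By windows, 1 was higher at 24 h against NSPs under total reads, loess, TMM, the mean of log2 values and without NSP replicate 1 (0 to 1 over libraries left out), in place of 0, and the mean of log2 values gave 3 lower in place of 5. For 1 week against 72 h, 0 windows were higher under total reads, 2 under loess, 3 under TMM and 0 by the mean of log2 values, in place of 6, and 4, 1 and 1 were lower under total reads, TMM and the mean of log2 values, in place of 0. Reversed there under total reads were Wnt7b (-0.28), Tcf7l1 (-0.13), Tcf7l2 (-0.13) and Axin2 (-0.13), under loess Tcf7l1 (-0.0672) and its start peak 21 (-0.0444), and by the mean of log2 values Wnt7a (-0.0235), Tcf7l1 (-0.0462), Tcf7l2 (-0.11) and Axin2 (-0.18). For 1 week against NSPs 2 windows were higher by the mean of log2 values and without NSP replicate 1 (1 to 2), in place of 1. With TNF at 24 h, 1 window was higher when only the groups compared were fitted, and 3 were lower under loess and 0 by the mean of log2 values (0 to 1 over libraries left out, 0 without 24 h with TNF replicate 1), in place of 1. With TNF at 72 h, 1 was higher when only the groups compared were fitted, and 2 were lower under total reads and 1 under loess, in place of 0. The cause was not tested.

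Libraries of different groups with the same number in the title deviated together little (correlations from -0.0449 to 0.106 over 45 pairs, 1 over 0.1). With the same number in the library name, correlations were -0.0416 to 0.106 over 41 pairs, 1 over 0.1. Neither number was therefore taken as a pairing. With the replicate block 24 peaks were higher and 42 lower at 24 h against NSPs, and calls of the start peaks of Tcf7l1 at 24 h and 72 h, of Lef1 at 1 week against NSPs, and of Tcf7 peak 4 with TNF at 72 h (library-name numbers only) were lost among those named by the rule. The depth behind a value was 1 to 2623 reads, and peaks under about 20 reads carry the widest errors.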
